A study of Mus musculus with 11 samples.

Results

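The 2 shCbx6 libraries of this knockdown experiment differed from each other more than the 2 shCTL libraries did, with 1.84 times as many genes past 1.5-fold. Of 6 simple epithelial keratins compared, 4 were higher in shCbx6 replicate 2 than in shCbx6 replicate 1 and 2 were lower. Among the 4, Krt8 and Krt18 also passed 1.5-fold in the same direction between the shCTL libraries. Most actin cytoskeleton genes were higher in shCbx6 replicate 2, several naive pluripotency genes were lower, and the core pluripotency genes were at like levels in both shCbx6 libraries. The comparison took shCbx6 replicate 2 against shCbx6 replicate 1 in every gene with at least 1 FPKM (fragments per kilobase of transcript, scaled to the number of mapped fragments in the library) in either library, which left 11605 of 23265 gene symbols. The same comparison within the shCTL pair, over 11346 genes, served as the measure of how far libraries of one group differed. With 1 library a side there was no replicate of either value, so no test was run and each difference describes these libraries only.

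The series held 11 samples from E14Tg2A, a male mouse embryonic stem cell line kept without feeder cells in serum and leukemia inhibitory factor (LIF): 4 RNA-seq libraries and 7 chromatin immunoprecipitation (ChIP) samples. The HA-Cbx6 replicates 1 and 2 came from a line edited to carry an HA tag on the endogenous CBX6 protein. Their control, by the paper's description, came from the unedited parental cells. For RNA-seq, the cells received by lentivirus either a control hairpin (shCTL, replicates 1 and 2) or a hairpin against Cbx6 (shCbx6, replicates 1 and 2). Infected cells were selected with an antibiotic. The paper lists puromycin, hygromycin and G418 and does not say which of them these libraries received. The study used 2 independent hairpins against Cbx6 but the labels do not say which one each library carried, so hairpin, infection and replicate cannot be told apart, and nothing states whether replicates came from separate infections. From the spacing of the lowest values, each library held about 28600000 to 34000000 fragments, and 11102 to 11310 genes reached 1 FPKM.

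CBX6 is a chromobox protein, one of the alternative subunits of Polycomb repressive complex 1, whose RING1B subunit ubiquitinates histone H2A. In embryonic stem cells CBX7 is the best known chromobox subunit, and Polycomb targets are mostly developmental genes held at low level. Cells in serum and LIF move between a naive state, marked by genes such as Nr0b1, Prdm14 and Tfcp2l1, and states closer to the post-implantation epiblast, marked by Otx2, Pou3f1 and Dnmt3b. Keratins 8 and 18 pair into the intermediate filaments of simple epithelia and are the first keratins made by the embryo, in the trophectoderm.

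The targeted gene was reduced in both shCbx6 libraries, to different degrees. Cbx6 (mm9, chromosome 15, 79654326 to 79665118, minus strand) stood at 17.4 FPKM in shCTL replicate 1, 14.9 in shCTL replicate 2, 9.53 in shCbx6 replicate 1 and 5.40 in shCbx6 replicate 2. These levels were 59.0% of the shCTL mean in shCbx6 replicate 1 and 33.4% in shCbx6 replicate 2, a 1.76-fold lower level in the latter. The groups did not overlap, and the library with the lower Cbx6 was the one with the higher Krt8 and Krt18. The CBX and PRC1 list differed about as often as all genes did, of which 17.6% passed 1.5-fold in either direction: of its 22 members at 1 FPKM or more, 1 was higher by 1.5-fold in shCbx6 replicate 2, 3 were lower (Cbx6 among them) and 18 were neither. Cbx7 levels in the shCTL pair were 76.2 and 69.9 FPKM, with 84.8 in shCbx6 replicate 1 and 61.1 in shCbx6 replicate 2. Pcgf5, which defines a variant PRC1, was at 4.61, 6.01, 4.84 and 9.18 FPKM, with libraries named here and below in the order shCTL replicate 1, shCTL replicate 2, shCbx6 replicate 1 and shCbx6 replicate 2. The other members past 1.5-fold were Pcgf2, 1.56-fold lower, and Phc3, 1.54-fold lower.

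Among keratins of simple epithelia, 4 were several-fold higher in shCbx6 replicate 2. Krt8 (chromosome 15, 101827142 to 101834773, minus strand) was at 4.81, 7.25, 12.1 and 118.8 FPKM, so 9.81-fold higher in shCbx6 replicate 2 than in shCbx6 replicate 1. Its filament partner Krt18 lies close by (chromosome 15, 101858647 to 101862457, plus strand) and was at 3.66, 6.91, 13.2 and 122.2 FPKM, a 9.29-fold difference. For both genes shCbx6 replicate 1 lay above both shCTL libraries, and shCbx6 replicate 2 lay far above all 3 other libraries. Krt7, a keratin of ducts and trophoblast (chromosome 15, 101241474 to 101260744, plus strand), was at 0.0219, 0.151, 0.549 and 9.02 FPKM, where the lowest value stands for a few fragments. Krt19, a further simple epithelial keratin, was at 0.775, 0.944, 1.78 and 11.5 FPKM. The shCTL libraries differed in the same direction by smaller ratios, 1.51-fold for Krt8 and 1.89-fold for Krt18. In the keratin list 4 of the 6 genes at 1 FPKM or more were higher in shCbx6 replicate 2 and 2 were lower, Krt42 by 1.79-fold and Krt17 by 1.53-fold, against 11.2% higher and 6.39% lower over all genes and 2 of 4 keratins higher in the shCTL pair. Of the 4 higher keratins Krt7 passed the 1 FPKM limit through shCbx6 replicate 2 alone. The list's median difference on the log2(FPKM + 1) scale was 2.43 between the shCbx6 libraries and 0.15 between the shCTL libraries. In bulk RNA, more cells of a type and more RNA per cell cannot be told apart.

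**Figure D1:**
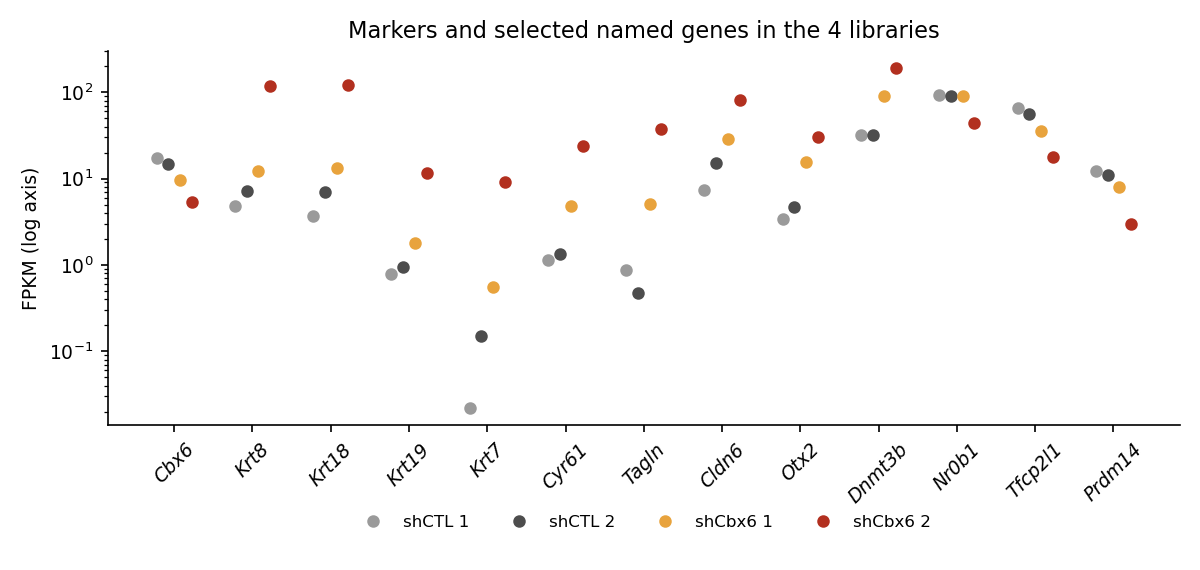
FPKM (log axis) of Cbx6, the other markers and selected named genes, 1 point per library. Cbx6 was lowest in shCbx6 replicate 2 at 5.40 FPKM, and Krt8 and Krt18 were highest there at 118.8 and 122.2 FPKM.

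Over all genes, 1299 were at least 1.5-fold higher in shCbx6 replicate 2 than in shCbx6 replicate 1, which is 11.2% of those compared, and 742 were lower, which is 6.39%. Between the shCTL libraries 592 genes were higher in replicate 2 (5.22%) and 515 were lower (4.54%). The excess of higher over lower genes between the shCbx6 libraries depended on the scaling: FPKM gave 1299 and 742, median-ratio scaling 921 and 1011, and quantile normalization 947 and 1001. In both directions together, 2041 genes (17.6%) passed 1.5-fold between the shCbx6 libraries and 1107 (9.76%) between the shCTL libraries, a ratio of 1.84. The shCbx6 excess was present at most levels: among genes with a mean of 3 to 10 FPKM over the 4 libraries 17.1% passed in the shCbx6 pair and 8.13% in the shCTL pair, and at 10 to 30 FPKM 9.19% and 5.22% did. Above 100 FPKM the shares were 11.9% and 11.2%. The spread of the log2 differences (a robust SD, from the median absolute deviation) was 0.29 in the shCbx6 pair and 0.25 in the shCTL pair, so most genes differed by little more in the shCbx6 pair than in the shCTL pair.

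**Figure D2:**
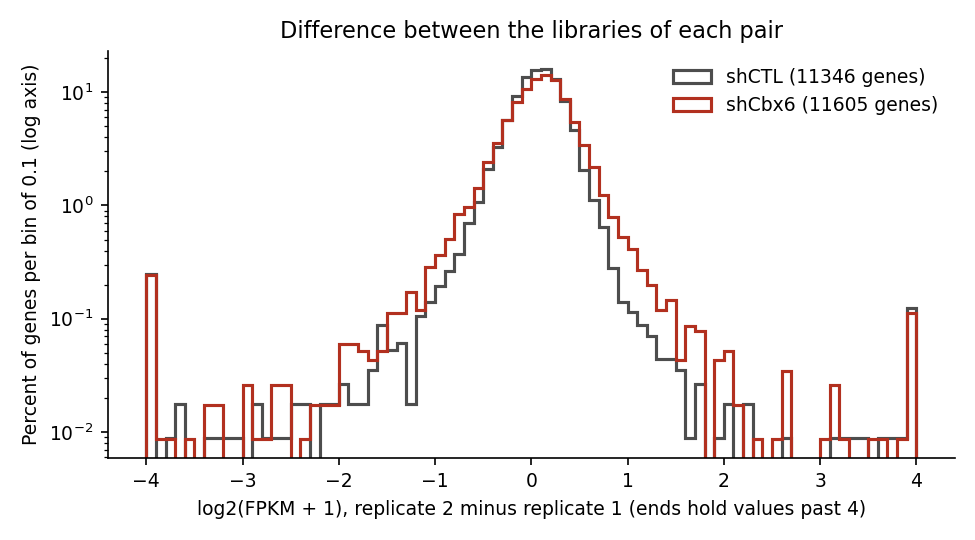
Percent of genes (log axis) by log2(FPKM + 1) difference, replicate 2 minus replicate 1, for the shCTL pair (11346 genes) and the shCbx6 pair (11605 genes). The shCbx6 curve is wider, with a robust SD of 0.29 against 0.25.

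Part of the shCbx6 difference ran along with replicate number in both groups. Of the 1299 genes higher in shCbx6 replicate 2, 220 (16.9%) were also 1.5-fold higher in shCTL replicate 2 and 25 (1.92%) were lower there, against 4.71% and 3.99% of all genes compared. For the 742 lower genes the overlap was larger, with 269 (36.3%) also lower in shCTL replicate 2 and 26 (3.50%) higher. That left 1054 higher and 447 lower genes that passed 1.5-fold in neither direction between the shCTL libraries. Across genes the pair differences correlated with a Pearson r of 0.31 and a Spearman rho of 0.50 (11605 genes, which are not independent, and no library is shared between the pairs). Replicate 1 of both groups also gave a larger share of summed FPKM to its 10 highest entries, 16.2% against 12.1% in shCTL and 15.2% against 11.0% in shCbx6. Transcript length correlated with the shCTL difference at a rho of -0.41 and with the shCbx6 difference at -0.12, and the part of such technical properties in the shared direction was not tested. Chromosome medians of the shCbx6 difference ran from 0.05 on chromosome 17 to 0.16 on chromosome 12.

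The actin cytoskeleton list was mostly higher in shCbx6 replicate 2, with little difference between the shCTL libraries. It holds contractile genes and targets of serum response factor (SRF) and of YAP with its TEAD partners, the factors that couple transcription to actin assembly and cell shape. Of 25 members at 1 FPKM or more, 20 were higher in shCbx6 replicate 2, none was lower and 5 were neither, against 11.2% higher over all genes, and the median log2 difference was 1.18. Of the 20 higher members 2, Anxa1 among them, passed the 1 FPKM limit through shCbx6 replicate 2 alone. In the shCTL pair 0 of 20 members passed in either direction and the median was 0.04. SRF binds the CArG box and TEAD proteins bind CATTCC, and windows from 4 members that were higher in shCbx6 replicate 2 show both motifs in capitals. They come from RefSeq promoters (GRCm38.p6), run 5′ to 3′ on the gene's strand and lie upstream of the annotated start.
Acta1 (chr8:123894799-123894888, minus strand): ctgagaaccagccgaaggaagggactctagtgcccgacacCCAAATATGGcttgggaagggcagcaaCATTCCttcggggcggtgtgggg
Cnn2 (chr10:79988504-79988593, plus strand): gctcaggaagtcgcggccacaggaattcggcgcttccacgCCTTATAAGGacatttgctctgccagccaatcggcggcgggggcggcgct
Myl9 (chr2:156775263-156775352, plus strand): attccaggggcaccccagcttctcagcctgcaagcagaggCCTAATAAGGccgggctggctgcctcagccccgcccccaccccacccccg
Cyr61 (chr3:145650039-145650128, minus strand): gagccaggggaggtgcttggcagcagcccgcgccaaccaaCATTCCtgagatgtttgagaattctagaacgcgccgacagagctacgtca

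Acta1 carries a CArG box and a TEAD motif that do not overlap, Cnn2 and Myl9 show the CArG box alone in these windows, and Cyr61 shows the TEAD motif. In the 250 bases upstream of the start, searched on both strands, a CArG box was found in 5 of the 19 list members with a promoter in the table (26.3%) and CATTCC in 10 (52.6%). Over all 27025 gene symbols of that table the shares were 1.62% and 14.4%. Among the 14 matched members that were higher in shCbx6 replicate 2, 3 held a CArG box and 7 held CATTCC. The list was drawn up from known SRF and YAP targets, so the motif shares describe how it was chosen, and a match is a string of letters and not a bound site. The CArG box was found in 1.74% of all 978 matched higher genes, 1.47% of 476 lower genes and 1.40% of all 9143 matched genes compared, and CATTCC in 16.1%, 16.4% and 12.8%.

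Single members of the actin list differed in how shCbx6 replicate 1 stood relative to the controls. Tagln, an actin-binding protein of smooth muscle, was at 0.874, 0.475, 5.12 and 37.0 FPKM, a 7.22-fold difference between the shCbx6 libraries with shCbx6 replicate 1 between the controls and shCbx6 replicate 2. Cyr61, a matricellular YAP target, was at 1.14, 1.34, 4.75 and 23.5 FPKM, the same order. Tpm1, which encodes a tropomyosin and is named after its values were seen, was at 22.4, 22.6, 51.7 and 118.5 FPKM. In these genes both shCbx6 libraries lay above both controls. Of the annexins, calcium-dependent membrane-binding proteins, 1 of the 3 shown here had that order. Anxa2 was at 15.5, 20.8, 18.6 and 73.7 FPKM, so shCbx6 replicate 1 fell within the range of the controls. Anxa1 was at 1.75, 2.30, 0.796 and 9.99 FPKM, with shCbx6 replicate 1 below both controls and a 12.6-fold difference between the shCbx6 libraries. Anxa3, the one with both shCbx6 libraries above both controls, was at 1.67, 2.16, 3.56 and 18.5 FPKM. The 5 members past neither threshold included Actg1, at 1.49-fold, and Vcl, the focal adhesion protein vinculin, at 25.4, 22.0, 23.2 and 27.8 FPKM.

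**Figure D3:**
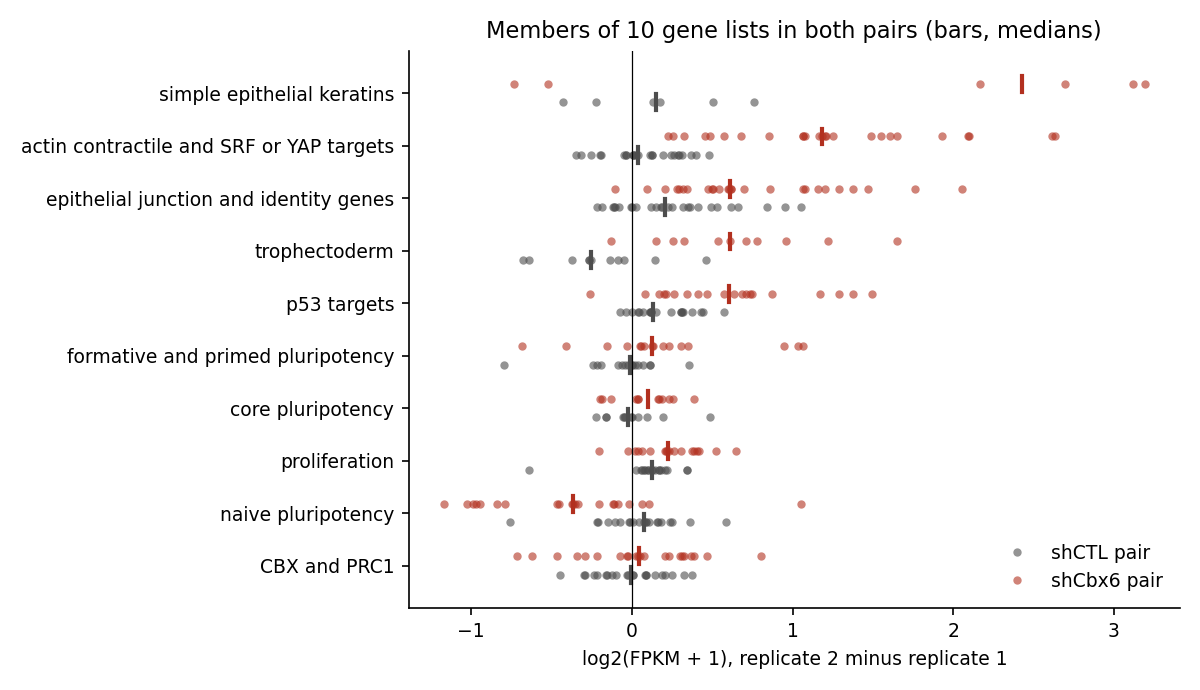
Difference of each member of 10 gene lists on the log2(FPKM + 1) scale, replicate 2 minus replicate 1, in the shCTL pair and the shCbx6 pair, with bars at the medians. The keratin and actin lists have shCbx6 medians of 2.43 and 1.18, and the naive list has -0.37.

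Junction and identity genes of epithelia were higher in shCbx6 replicate 2 as well. Of 26 such genes 16 were 1.5-fold higher, against 11.2% of all genes, none was lower and 10 were neither, with a median log2 difference of 0.61, while in the shCTL pair 6 of 21 were higher with a median of 0.21. Of the 16 higher genes 4 passed the 1 FPKM limit through shCbx6 replicate 2 alone. Cldn6, a tight junction claudin of early embryonic epithelium, was at 7.42, 15.3, 28.7 and 81.4 FPKM. Cldn7 was at 1.54, 4.25, 7.99 and 29.5 FPKM. Both claudins were also higher in shCTL replicate 2 than in shCTL replicate 1, by 2.06-fold and 2.77-fold. Perp, a desmosome-associated p53 target, was at 3.81, 4.99, 5.01 and 14.6 FPKM. Cdh1, which encodes E-cadherin, is named after its values were seen: it was at 74.9, 85.4, 96.3 and 118.4 FPKM and stayed under 1.5-fold. The scaling alternatives left 14 and 13 of the 26 members higher and none lower.

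The core and the naive pluripotency genes are given apart. All 12 core genes stayed within 1.5-fold between the shCbx6 libraries, where 17.6% of all genes did not, so few of 12 would pass at that share. Among them were Pou5f1, at 1359, 1452, 1120 and 1151 FPKM, and Sox2, at 132.9, 151.8, 159.9 and 140.5 FPKM, both named after their values were seen. Of 21 naive genes, 1 was higher in shCbx6 replicate 2, 7 were lower and 13 were neither, against 6.39% lower over all genes, and the median log2 difference was -0.37, against 0.07 in the shCTL pair. Nr0b1, an orphan nuclear receptor (chromosome X, 83437103 to 83441286, plus strand), was at 91.6, 91.0, 90.1 and 43.7 FPKM. For this gene 3 libraries stood together and shCbx6 replicate 2 alone was lower, by 2.06-fold. Tfcp2l1, a transcription factor of the naive network, was at 64.8, 55.6, 35.5 and 17.7 FPKM. Prdm14, a repressor of differentiation genes, was at 12.3, 11.0, 8.01 and 3.01 FPKM. Tet2, a methylcytosine dioxygenase, was at 29.8, 17.2, 10.2 and 4.67 FPKM. In these 3 genes the order was the same, with both shCbx6 libraries below both controls, though Tet2 also differed past 1.5-fold between the shCTL libraries. Named after their values were seen, Esrrb, Tbx3 and Tcl1 made up the 7 lower genes, at 1.74-fold, 1.91-fold and 1.96-fold. Nanog, at 203.5 and 191.6 FPKM in the shCbx6 libraries, and Zfp42, at 307.5 and 321.6 FPKM, were among the 13 that passed neither threshold. Dppa3, a maternal-effect gene of naive cells and the germ line, went the other way at 2.36, 2.19, 27.0 and 57.1 FPKM.

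The formative and primed list gave 4 higher (3 under either scaling), 1 lower and 11 neither of 16 genes, against 11.2% higher and 6.39% lower over all genes, with a median log2 difference of 0.13. Of the 4 higher genes 1 passed the 1 FPKM limit through shCbx6 replicate 2 alone. In the shCTL pair 1 of 14 was higher and 1 lower. Dnmt3b, a de novo DNA methyltransferase, was at 31.8, 31.8, 90.9 and 191.5 FPKM. Otx2, a homeodomain factor of the epiblast, was at 3.42, 4.65, 15.3 and 30.4 FPKM, and Pou3f1 (OCT6) was at 0.925, 0.977, 4.55 and 10.4 FPKM. In these 3 genes the shCTL libraries stood together, shCbx6 replicate 1 lay above them and shCbx6 replicate 2 was about 2-fold higher again, by 2.11-fold, 1.98-fold and 2.28-fold. Zic2 was at 7.45, 3.88, 12.1 and 7.13 FPKM, lower in replicate 2 of both groups. Lef1, named after its values were seen, was at 10.2 and 11.2 FPKM in the shCbx6 libraries against 2.83 and 2.34 in the shCTL libraries, so it set the groups apart and not the shCbx6 libraries.

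Markers of other lineages were mostly below 1 FPKM. The trophectoderm list had 11 of 17 genes at 1 FPKM or more, of which 7 were higher in shCbx6 replicate 2 and none was lower. Over all genes 11.2% were higher, but among those with a mean under 1 FPKM over the 4 libraries 56.4% were and at 1 to 3 FPKM 23.1%, and 4 of the 7 passed the 1 FPKM limit through shCbx6 replicate 2 alone. Its summed level was 25.3 and 20.1 FPKM in shCTL replicates 1 and 2, against 36.6 and 60.4 FPKM in shCbx6. Its defining genes were low: Cdx2 was at 0.0156, 0.0615, 0.114 and 0.511 FPKM and Elf5 stayed at or under 0.0533 FPKM. Hand1, a basic helix-loop-helix factor of trophoblast giant cells, was at 0.0535, 0.0176, 0.205 and 1.80 FPKM, and Wnt7b, a WNT ligand, was at 0.162, 0.0941, 0.608 and 4.04 FPKM. Both were among those 4 genes, which had to differ there. The primitive endoderm list had 9 of 24 genes at 1 FPKM or more, 6 higher and 1 lower, and 2 of the 6 passed through shCbx6 replicate 2 alone. Sparc, a matrix glycoprotein, was at 20.7, 26.8, 17.6 and 61.0 FPKM, and Col4a1, a basement membrane collagen, was at 4.02, 4.22, 1.39 and 5.52 FPKM. Gata4 and Gata6, which define that lineage, stayed between 0.111 and 0.504 FPKM, and Afp and Ttr were listed at 0 in all 4 libraries. Of the EMT and fibroblast list, which holds markers of stromal cells, 7 of 22 genes reached 1 FPKM with summed levels of 223.7 and 191.0 in shCTL and 188.8 and 247.8 in shCbx6. Of these 7 genes 3 were higher and 1 was lower in shCbx6 replicate 2. The higher ones were S100a6, described below, Thy1, a surface glycoprotein at 1.68, 1.64, 1.16 and 3.82 FPKM, and Snai1, a repressor of E-cadherin at 0.328, 0.712, 0.777 and 1.96 FPKM. The lower one was Zeb1, another such repressor, at 2.91, 2.02, 1.36 and 0.713 FPKM. Lum was listed at 0 in all 4 libraries and Col1a1 stayed at or under 0.549 FPKM. The part of other cell types in the keratin and actin differences was not tested.

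Of 20 primitive streak and mesoderm genes only 4 reached 1 FPKM in a shCbx6 library, too few for the naming rule, and 3 of them, named after their values were seen, were lower in shCbx6 replicate 2, against 6.39% of all genes. In the shCTL pair 2 of 5 were lower. Lefty2, a secreted inhibitor of NODAL, was at 62.9, 39.5, 60.3 and 7.78 FPKM, 7.75-fold lower in shCbx6 replicate 2 than in shCbx6 replicate 1. Lefty1, a paralogue with the same role, was at 76.7, 47.6, 121.1 and 19.7 FPKM. Both genes were also lower past 1.5-fold in shCTL replicate 2 than in shCTL replicate 1. For Lefty1 the shCbx6 libraries lay on opposite sides of both controls. Nodal itself was at 30.5, 34.8, 30.6 and 32.7 FPKM. Bmp4, a ligand of the BMP pathway, was at 22.4, 20.7, 13.4 and 6.59 FPKM.

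The largest single differences, among 7690 genes at 5 FPKM or more in the higher shCbx6 library and under 1.5-fold in the shCTL pair are described next. Besides the genes above, the 12 largest higher genes held S100a6, a calcium-binding protein, at 6.75, 9.91, 18.5 and 100.5 FPKM. Cald1, the actin and tropomyosin binding protein caldesmon, was at 3.62, 4.85, 3.44 and 17.1 FPKM, and Cryab, a small heat shock protein, was at 1.20, 1.25, 0.709 and 5.44 FPKM. In the last pair shCbx6 replicate 1 stood below both controls. Klhl13, an adaptor of a cullin ubiquitin ligase encoded on the X chromosome, was at 11.2, 10.3, 25.6 and 103.7 FPKM, and Psors1c2 was at 1.94, 1.87, 3.61 and 14.3 FPKM. AF357399, a small nucleolar RNA, was listed at 0 in shCbx6 replicate 1 and at 46.1 to 62.1 FPKM in the other libraries. A value of 0 can be a failed estimate, and the gene is too short to be well measured.

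The 12 largest lower genes ran from Stmn3, a microtubule-destabilising stathmin at 13.9, 13.9, 9.87 and 2.56 FPKM, to Pltp, the phospholipid transfer protein, at 46.4, 41.9, 50.6 and 21.1 FPKM. Trh, which encodes thyrotropin-releasing hormone, was at 173.0, 136.0, 285.7 and 93.7 FPKM, so shCbx6 replicate 1 lay above and shCbx6 replicate 2 below both controls. The WNT antagonists Sfrp1, at 26.4, 23.9, 12.8 and 4.00 FPKM, and Notum, at 26.1, 19.4, 18.2 and 6.61 FPKM, were lower in both shCbx6 libraries than in either control. Mras, a RAS-family GTPase, was at 27.3, 26.1, 7.53 and 2.33 FPKM, again low in both shCbx6 libraries. Nphs1 and Kirrel2, neighbouring genes of the slit diaphragm (chromosome 7, 31243334 to 31272242 and 31232553 to 31242709), were 2.87-fold and 2.70-fold lower. The remaining named lower genes were Ceacam1, Slc17a9, Lrrc34 and Dpp7, which were 2.61-fold to 3.53-fold lower.

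**Figure D4:**
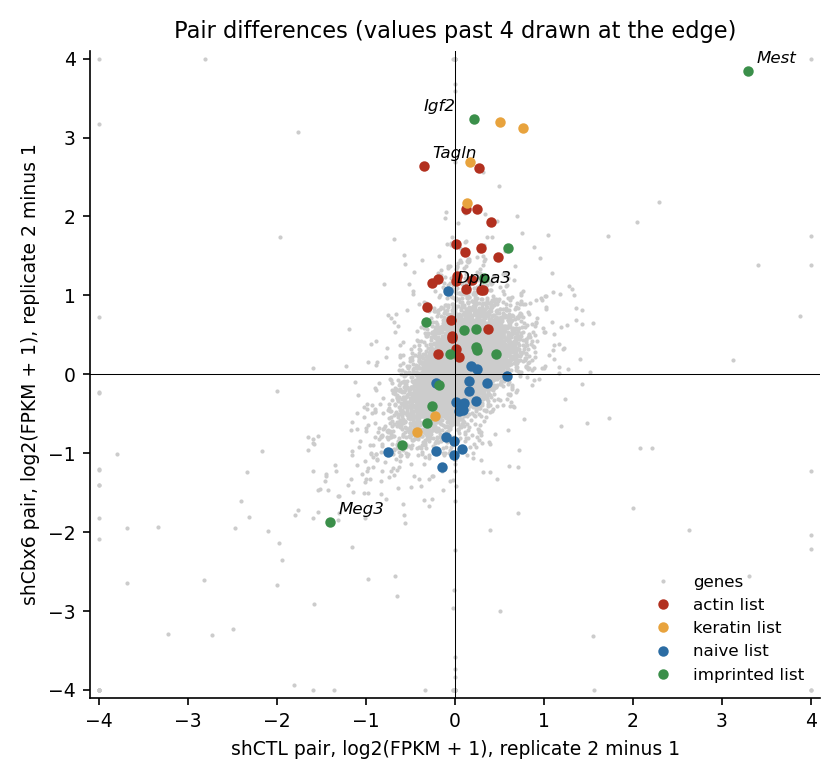
Difference of each gene on the log2(FPKM + 1) scale, replicate 2 minus replicate 1, in the shCTL pair (horizontal) and the shCbx6 pair (vertical), with 4 gene lists coloured. Most actin genes lie high at shCTL differences near 0. Of the keratins, Krt7 and Krt19 lie high at shCTL differences of 0.17 and 0.13, and Krt8 and Krt18 lie high at 0.51 and 0.76. Krt42 and Krt17 lie lower, and Mest and Meg3 lie along the diagonal.

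Growth and stress lists were uneven. Of 20 p53 targets 12 were higher in shCbx6 replicate 2, or 10 under either scaling alternative, against 11.2% of all genes, and none was lower, with a median log2 difference of 0.61, against 2 of 20 and 0.13 in the shCTL pair. Of the 12 higher p53 targets 1 passed the 1 FPKM limit through shCbx6 replicate 2 alone. Btg2, an antiproliferative cofactor, was at 1.93, 2.64, 2.02 and 7.51 FPKM, and Phlda3, an inhibitor of AKT, was at 5.50, 8.69, 7.33 and 19.3 FPKM. Cdkn1a, the cyclin-dependent kinase inhibitor p21, was at 10.6, 14.7, 10.6 and 20.2 FPKM. For these genes shCbx6 replicate 1 lay within the range of the controls or close to it. Of 18 proliferation genes 1, Plk1, was 1.57-fold higher, a call lost under either scaling, and none was lower. Of 17 immediate early and MAPK feedback genes 8 were higher (6 under either scaling, and 2 of the 8 passing 1 FPKM through shCbx6 replicate 2 alone) and none was lower, among them Ier3 at 3.85, 4.38, 3.78 and 11.8 FPKM. In the shCTL pair 3 of 15 genes of that list were higher and none lower. Its median log2 difference was 0.26 in the shCbx6 pair and 0.18 in the shCTL pair.

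Each shCbx6 library was also set against the shCTL mean, and the values below share those controls. The robust SD of the log2 differences from that mean was 0.24 in shCbx6 replicate 1 and 0.34 in shCbx6 replicate 2. Between the shCTL libraries, a difference of single libraries and not from a mean, it was 0.25, and 9.76% of genes passed 1.5-fold there. The spread in shCbx6 replicate 1 was thus no wider than that of the shCTL pair. In shCbx6 replicate 1, 632 genes were 1.5-fold higher and 849 lower of 11442, and in shCbx6 replicate 2, 1413 were higher and 1178 lower of 11699. The keratin list's median log2 difference from the shCTL mean was 0.55 in shCbx6 replicate 1 and 2.98 in shCbx6 replicate 2, and the actin list's was 0.38 and 1.86. The naive list's median was -0.37 in shCbx6 replicate 1 and -0.57 in shCbx6 replicate 2, and the formative and primed list's was 0.53 and 0.30.

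The ChIP peak lists gave a readout from outside the RNA libraries. They held 5081 peaks for CBX7, 4180 for RING1B, and 21865 and 5103 for HA-tagged CBX6 in its replicates 1 and 2. Among genes higher in shCbx6 replicate 2, 37.2% had a CBX7 peak within 2.5 kb of a start site (95% Wilson interval 34.6% to 39.9%, counting error only), against 16.6% of lower genes (14.0% to 19.6%) and 8.49% of genes that were neither. RING1B peaks lay at 29.9%, 16.0% and 7.45%, and HA-Cbx6 replicate 2 peaks at 32.7%, 14.0% and 9.30%. The longer HA-Cbx6 replicate 1 list covered most starts and gave 69.7%, 70.8% and 78.1%, with the genes that were neither highest. By the mean level in the shCTL libraries, which do not enter the call, CBX7 peaks lay at 45.7% of the genes compared under 1 FPKM and 1.92% at 30 FPKM and over, whereas HA-Cbx6 replicate 1 peaks rose from 61.0% to 82.0%. The CBX7 shares were therefore also taken within levels. At 1 to 3 FPKM a CBX7 peak lay at 42.3% of higher, 23.6% of lower and 24.3% of other genes, and at 3 to 10 FPKM at 31.7%, 17.4% and 11.2%. At 10 to 30 FPKM the shares were 18.8%, 13.2% and 3.72%, and at 30 FPKM and over, where higher and lower genes stood together, 6.49%, 7.03% and 1.54%. Under 1 FPKM they were 50.6%, 19.7% and 45.7%. In the shCTL pair the CBX7 shares were 19.1%, 15.3% and 10.4% over all levels, and 20.7%, 16.8% and 13.0% at a mean of 3 to 10 FPKM in the shCbx6 libraries. RING1B shares in the shCbx6 pair were 44.3%, 18.2% and 42.4% under 1 FPKM and 32.8%, 23.0% and 20.0% at 1 to 3 FPKM. At 3 to 10 FPKM they were 23.8%, 19.2% and 8.84%. At 10 to 30 FPKM they were 13.5%, 13.2% and 3.97%, and at 30 FPKM and over 2.6%, 3.1% and 2.0%, so higher and lower genes stood together there. HA-Cbx6 replicate 2 shares at 3 to 10 FPKM were 27.6%, 14.5% and 11.1%.

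**Figure D5:**
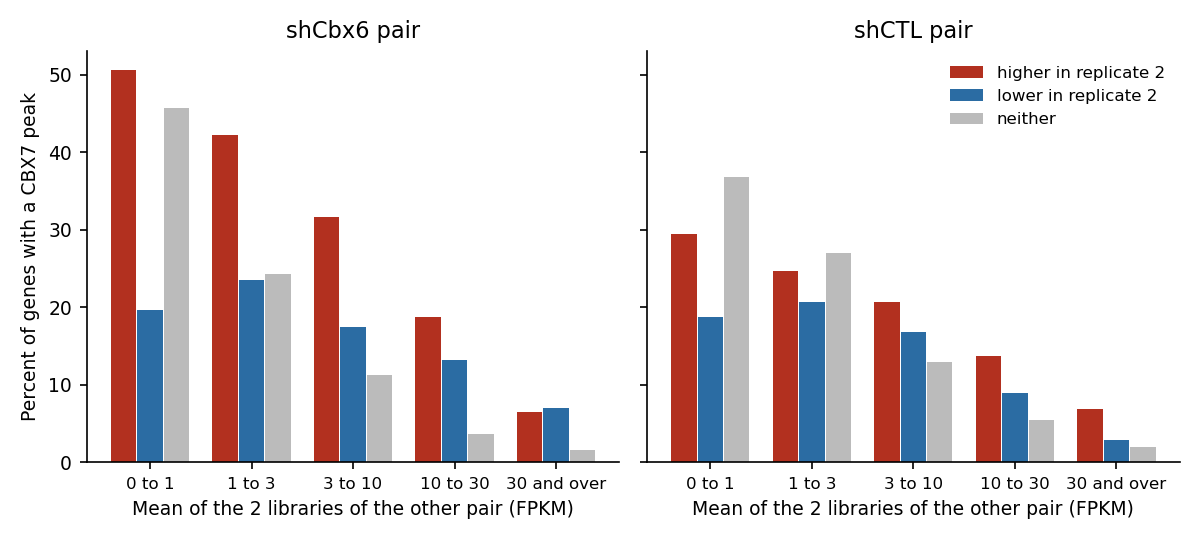
Percent of genes with a CBX7 peak within 2.5 kb of a start site, by the mean level in the 2 libraries of the other pair, for genes higher, lower or neither in replicate 2 of the shCbx6 pair (left) and the shCTL pair (right). At 3 to 10 FPKM the higher genes reach 31.7% in the shCbx6 pair and 20.7% in the shCTL pair.

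Among list members at 1 FPKM or more in either shCbx6 library, CBX7 peaks lay at 15 of 26 epithelial junction genes, 8 of 11 trophectoderm genes and 11 of 16 formative and primed genes, and at 6 of 25 actin genes, 4 of 21 naive genes and 0 of 12 core genes. Over all genes compared the share was 12.2%, and the lists were not matched to it for level. Krt18 had a peak in all 4 lists, Krt8 in 3 and Krt7 in 2. Cyr61, Cldn7, Hand1 and Wnt7b also had a peak in all 4. Tagln, Sparc, S100a6, Anxa1 and Anxa3 had a peak in none of the 4 lists. Genes with and without a Polycomb peak in these cells were thus both among the largest differences between the shCbx6 libraries.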

How the data were processed

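RNA-seq levels were taken from a deposited table of FPKM values, made by the authors from paired-end reads with TopHat and Cufflinks on mm9 and RefSeq genes, with 1 reported alignment per read. The file calls the unit RPKM and the methods FPKM; FPKM was used. Of 23290 entries, 25 whose symbols had been turned into dates were left out. Peak lists were deposited as mm9 BED files with a score per peak, called by the authors with MACS; only positions were used here. Genes at 1 FPKM or more in either library of a pair were compared by the ratio of FPKM (1.5-fold) and by log2(FPKM + 1). FPKM hides fragment counts, so the precision of low or short genes is not known from the values.

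No test was run, with 1 library a side. The script was checked on simulated data. Gene models were GENCODE vM1 (NCBIM37), and 11379 of 11605 genes were placed. Promoters came from RefSeq (GRCm38.p6).

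Members, and 31 gene lists (521 genes), were chosen with earlier results of these data known. Named genes were the 5 markers, the 12 largest differences in each direction (at least 5 FPKM in the higher shCbx6 library, under 1.5-fold in the shCTL pair, no symbols with small RNA prefixes such as Mir or Snor, which the snoRNA AF357399 lacks), and up to 4 members per direction past 1.5-fold in lists with at least 5 genes at 1 FPKM. Other genes given by name, such as Cbx7, Tpm1, Actg1, Vcl and Nodal, were picked outside this rule. Alternatives covered filter, fold, pseudocount and scaling. Python 3.11.15, pandas 2.3.3 and scipy 1.17.1 were used. One gene that the naming rule selects is not reported here.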

Additional observations from a re-analysis of the deposited data

Results flagged for a closer look

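In 6 named genes the libraries of the shCTL pair and of the shCbx6 pair differed by 1.5-fold or more in opposite directions, and this difference between pairs was not tested, with 1 library a side. On the log2(FPKM + 1) scale, replicate 2 minus replicate 1, Zscan4f was at 1.51 in the shCbx6 pair and -0.57 in the shCTL pair. Zscan4c was at 1.40 and -0.56, and Zscan4a at 1.30 and -0.46. These 3 genes belong to a family of near-identical copies that marks a rare state resembling the 2-cell embryo, so reads may be split among copies, and Zscan4f stood at 1.47 and 0.661 FPKM in the shCTL pair against 0.467 and 3.17 FPKM in the shCbx6 pair. Cdkn2a, which encodes the cell cycle inhibitors p16 and p19ARF, was at 0.54 in the shCbx6 pair and -0.43 in the shCTL pair. The histone genes Hist1h4a and Hist1h4d went the other way, at -1.17 and -0.65 in the shCbx6 pair and 0.71 and 1.19 in the shCTL pair, and their transcripts are short and mostly without a poly(A) tail.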

How the results depend on the processing

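With 1 library a side, a library could not be left out and no error stands behind any single difference. No paired analysis was possible because replicate 2 against replicate 1 is itself the comparison, so the replicate number cannot also be a block, and the values come from no test. FPKM values also hide the fragment counts behind low and short genes.

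Counts of genes past the threshold, given as higher and lower in replicate 2, moved with filter and threshold. At 5 FPKM or more there were 578 and 403 in the shCbx6 pair and 289 and 249 in the shCTL pair, and with no filter 4069 and 2266 against 2121 and 2692. At 2-fold there were 484 and 331 against 146 and 213, and at 3-fold 174 and 130 against 68 and 93. With 1 FPKM added before the ratio, there were 794 and 512 in the shCbx6 pair against 351 and 301 in the shCTL pair. Scaling lowered the median log2 difference of the shCbx6 pair from 0.11 to about 0.00 (median-ratio) or 0.03 (quantile). In alternatives chosen after seeing the data, the shCbx6 ratio divided by the shCTL ratio gave 910 higher and 551 lower genes, of which 640 and 300 were also past the threshold before division.

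List medians on the log2 scale moved with the pseudocount. With 0.1 they were 2.91 for keratins, 1.14 for primitive endoderm and 2.37 for two-cell-like genes, and with 5 they were 1.31 for keratins, 0.21 for trophectoderm, 0.91 for actin genes, 0.40 for two-cell-like genes and 0.22 for germline genes. The other 104 of 112 list medians moved by less than the spread of the shCTL pair (0.25). In lists with no scaling count beside them, either scaling moved the number of higher or lower members by at most 1. No named gene's difference changed sign in 480 recalculations.

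At 5 FPKM or more, peaks lay at 30.4% of higher and 9.92% of lower genes for CBX7, 23.0% and 8.54% for RING1B, 26.9% and 8.54% for HA-Cbx6 replicate 2, and 74.7% and 78.2% for HA-Cbx6 replicate 1. With peaks up to the transcription end counted, HA-Cbx6 replicate 1 peaks lay at 72.8% of higher and 72.0% of lower genes, which turns their order. Level bins by the mean of the other pair were chosen after seeing the data, and by the mean of all 4 libraries CBX7 peaks lay at 35.1%, 17.2% and 11.3% of higher, lower and other genes at 3 to 10 FPKM.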

Other observations

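Among imprinted genes, some differed by replicate number in both groups. Mest, a paternally expressed gene of the hydrolase family, was at 3.32 FPKM in shCTL replicate 1, 41.3 in shCTL replicate 2, 2.32 in shCbx6 replicate 1 and 46.6 in shCbx6 replicate 2. Meg3, a maternally expressed long noncoding RNA, was at 61.1, 22.5, 89.5 and 23.7 FPKM in the same order. In both genes the libraries paired by replicate number and not by hairpin. Igf2, a paternally expressed growth factor, did not: it was at 0.173, 0.359, 2.35 and 30.5 FPKM, 13.0-fold higher in shCbx6 replicate 2 than in shCbx6 replicate 1. Peg10, a retrotransposon-derived placental gene, was at 23.5, 35.9, 54.1 and 166.7 FPKM. Of 16 imprinted genes at 1 FPKM or more, 6 were higher in shCbx6 replicate 2, 3 were lower and 7 were neither, against 11.2% higher and 6.39% lower over all genes, and in the shCTL pair 2 of 14 were higher and 2 lower.

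The ATF4 and unfolded protein response list differed within both pairs, with 12 of 21 genes higher (8 under either scaling alternative) and none lower between the shCbx6 libraries and 6 of 19 higher between the shCTL libraries, and 1 of the 12 passed the 1 FPKM limit through shCbx6 replicate 2 alone. Over all genes 11.2% were higher and 6.39% lower in the shCbx6 pair. Ddit4, an inhibitor of mTORC1, was at 2.94, 11.9, 6.10 and 22.9 FPKM, and Chac1, a glutathione-degrading ATF4 target, was at 6.75, 12.1, 3.66 and 15.2 FPKM. Of 17 cholesterol synthesis genes 3 were lower in shCbx6 replicate 2 (5 under either scaling) and none was higher, among them Insig1, the sterol sensor partner, at 36.3, 29.4, 46.4 and 22.2 FPKM. Of 13 germline genes 7 were higher and 1 was lower, with Mael, a piRNA pathway gene, at 5.81, 7.25, 8.36 and 15.4 FPKM. Interferon genes gave 5 higher and 1 lower of 13, and in both lists 3 of the higher genes passed the 1 FPKM limit through shCbx6 replicate 2 alone. The immunoproteasome subunit Psmb9 was at 0.803, 2.33, 1.05 and 5.25 FPKM.

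In the remaining lists, against 11.2% higher and 6.39% lower over all genes, higher and lower counts between the shCbx6 libraries were 1 and 1 of 12 LIF and STAT3 signalling genes, 2 and 3 of 7 neural genes, 3 and 1 of 7 EMT and fibroblast genes, 1 and 1 of 11 PRC2 genes, 2 and 1 of 8 DNA methylation genes, and 3 and 0 of 6 CDK inhibitors. They were 3 and 0 of 20 hypoxia and glycolysis genes, 3 and 0 of 11 heat shock genes, and 2 and 1 of 8 WNT targets. Both higher WNT targets, 2 of the 3 higher heat shock genes and 1 higher gene each of the LIF, EMT and CDK inhibitor lists passed the 1 FPKM limit through shCbx6 replicate 2 alone. Of 7 two-cell-like genes at 1 FPKM or more, 6 were higher and 0 lower, all of them Zscan4 copies. All 6 passed the 1 FPKM limit through shCbx6 replicate 2 alone, and of all genes compared 56.4% of those with a mean under 1 FPKM over the 4 libraries and 23.1% of those at 1 to 3 FPKM were higher, so nothing is read from that count. Of 10 histone genes 2 were higher and 3 lower, while 8 were higher in shCTL replicate 2. The 3 Y-linked genes at 1 FPKM or more stayed within 1.5-fold, and 1 of 3 blood cell markers was higher, again one that passed through shCbx6 replicate 2 alone.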
